A study of Mus musculus with 2 samples.

Results

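Bidirectional promoter peaks are Tcf1 binding peaks whose summit, the base with the most fragments, lay within 1 kb of the start sites of 2 different protein-coding genes that are transcribed away from each other, one on the minus and one on the plus strand. Of the 22286 deposited peaks, 907 met this rule on chromosomes 1 to 19 with the start sites of GENCODE vM1 on mm9. The rule used position alone and no measured value of the peaks. The 907 peaks fell on 865 gene pairs and 1728 genes, and 41 pairs held more than 1 peak, with at most 3 on a pair. They are compared below with 7153 one-directional promoter peaks, which lay within 1 kb of a protein-coding start site without such a pair, and with 13219 distal peaks, which lay further than 1 kb from any annotated start site.

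Tcf1 binding was measured by ChIP-seq in naïve CD8+ T cells sorted from mouse spleen as GFP+ TCRbeta+ CD62Lhi CD44lo-med cells, with 1 WT library and 1 Tcf1-deficient library, both made with an antiserum raised against full-length Tcf1. By the series text both groups carried hCD2-Cre, which is active mostly in mature peripheral T cells, and Rosa26-lsl-GFP, and their Tcf1 and Lef1 genes were either wild type or double floxed. The sources differ on the control cells: the sample title calls them Tcf1-deficient, the genotype field gives Tcf1-/-Lef1-/-, and the study's methods describe Tcf7-/- cells obtained with Cd4-Cre, so absence of Lef1 from the control cells cannot be told from these sources. By the study's methods the mice were 6 to 12 weeks old, of both sexes and on the C57BL/6 background. The number of animals behind each library is not given in the sources used here. After removal of duplicates the WT library held 36938606 fragments and the control library 27625250. With 1 library per group there was no replicate check, and the intervals given here are 95% intervals over peaks or promoters, which are not replicates, and cover counting error only. Expression was not analysed here, so the labelled cell type was not checked against its marker genes.

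In a bidirectional promoter, one stretch of DNA serves the starts of a pair of genes that run in opposite directions. Such promoters are known in mammals for lying mostly in CpG islands, for rarely having a TATA box and for pairing genes of DNA repair, mitochondria and basic cell metabolism. Tcf1, encoded by Tcf7, is an HMG-box factor that binds the Tcf/Lef sequence directly and can also be recovered at DNA through other bound factors. ETS, NRF1, NFY, YY1 and Sp/KLF proteins are transcription factors whose short binding sequences are common in promoters of this kind.

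The sequences below are the Tcf/Lef sites at 7 of the 8 strongest bidirectional promoter peaks that carried the exact Tcf/Lef core, and they show what the core looked like where Tcf1 recovery was highest. Each is read 5′ to 3′ from mm9 on the strand that carries the core, with 11 bases on each side, and capitals mark the core ATCAAAG.
Smyd1/Cd8b1, chr6:71272607-71272635, minus strand: tcctatacagcATCAAAGccttgactttt
Zfp142/Bcs1l, chr1:74634614-74634642, minus strand: ggggcggccacATCAAAGgcccccgagga
Hist2h2ac/Hist2h2be, chr3:96025490-96025518, minus strand: gactttaaaagATCAAAGgggccagcgag
Nhlrc3/2810046L04Rik, chr3:53267554-53267582, plus strand: cgacacgctctATCAAAGgtcccctggag
BC053749/Hspb6, chr7:31337496-31337524, plus strand: caatagtaaggATCAAAGgccgggctgac
Npc2/Isca2, chr12:86114096-86114124, plus strand: gttctctgtcaATCAAAGccctcttatct
Prr11/Fam33a, chr11:86922270-86922298, plus strand: gtcttgaaaggATCAAAGcacagcttgga
In Smyd1/Cd8b1, Zfp142/Bcs1l, Hist2h2ac/Hist2h2be, Nhlrc3/2810046L04Rik and Prr11/Fam33a the core centre lay 2, 5, 5, 4 and 6 bp from the summit. In BC053749/Hspb6 and Npc2/Isca2 it lay 22 and 74 bp away. The 7 sites were chosen for carrying the core, and its distance from the summit differed among them.

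The ETS core CGGAAGT was the sequence that most separated these peaks from their flanks beside the Sp/KLF box, and its sites at the 2 strongest peaks that carried it are shown in the same way, with capitals marking CGGAAGT.
Hnrnpd/4930524J08Rik, chr5:100408119-100408147, plus strand: ttaaagaggacCGGAAGTggcgtgcgcaa
Prrg2/Nosip, chr7:52317799-52317827, plus strand: ctcctgtcgggCGGAAGTaggaggagtag
These 2 ETS cores lay 17 and 94 bp from their summits. In Prrg2/Nosip the core was therefore in the outer part of the window of 100 bp on each side that was searched.

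The whole windows of 100 bp on each side of 3 summits show the setting of such sites, chosen as those of the pairs above that hold no annotated untranslated base, with capitals marking the Tcf/Lef or ETS core.
Smyd1/Cd8b1, chr6:71272519-71272719, plus strand: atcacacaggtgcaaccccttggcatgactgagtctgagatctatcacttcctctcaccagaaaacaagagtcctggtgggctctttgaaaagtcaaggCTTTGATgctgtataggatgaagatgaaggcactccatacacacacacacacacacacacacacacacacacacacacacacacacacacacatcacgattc
Hnrnpd/4930524J08Rik, chr5:100408016-100408216, plus strand: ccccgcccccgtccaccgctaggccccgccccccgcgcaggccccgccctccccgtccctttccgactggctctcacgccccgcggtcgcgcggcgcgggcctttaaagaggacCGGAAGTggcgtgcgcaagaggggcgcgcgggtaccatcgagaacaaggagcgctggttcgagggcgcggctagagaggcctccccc
BC053749/Hspb6, chr7:31337388-31337588, plus strand: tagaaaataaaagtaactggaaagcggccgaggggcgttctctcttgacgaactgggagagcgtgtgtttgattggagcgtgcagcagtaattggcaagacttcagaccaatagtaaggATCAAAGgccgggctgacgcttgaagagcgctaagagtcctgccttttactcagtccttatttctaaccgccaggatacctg
The Smyd1/Cd8b1 window holds 1 Tcf/Lef core beside a long CA repeat. Besides the cores in capitals, the Hnrnpd/4930524J08Rik window holds the Sp/KLF box and the BC053749/Hspb6 window the NFY box, which are spelled out further on.

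Where Tcf1 was recovered in WT over control cells at these promoters was asked first. Bidirectional promoter peaks were of middling height. The median fold enrichment, which is the WT pileup plus 1 over the local control level plus 1, was 6.39 (6.23 to 6.54), with an interquartile range of 4.76 to 8.73 and a full range of 2.68 to 81.2. The median pileup, counted as unscaled WT fragments at the summit, was 41, with an interquartile range of 31 to 57 and a range of 19 to 520. Of the 907 peaks, 808 (89.1%, 86.9 to 91.0) passed the study's criteria, namely fold enrichment not below 4, p below 1e-05 and q below 0.05, against 85.4% of all deposited peaks. The share was 86.5% of one-directional promoter peaks, a difference of 2.62 percentage points (0.289 to 4.65).

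One-directional promoter peaks had a median fold enrichment of 5.92, and 56.8% (53.5 to 59.97) of the bidirectional peaks lay above that value. Among peaks past the criteria alone, 52.4% (48.9 to 55.8) of the 808 lay above the one-directional median, an interval that includes an even split. The difference was thus smaller among peaks past the criteria. At the high end, 29 bidirectional peaks (3.20%) had a fold enrichment of 20 or more, which differed by -0.37 percentage points (-1.43 to 1.05) from one-directional promoter peaks and by -5.87 points (-6.96 to -4.43) from the 9.07% of distal peaks. Distal peaks had the same median fold enrichment, 6.39, but a longer upper tail.

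**Figure D1:**
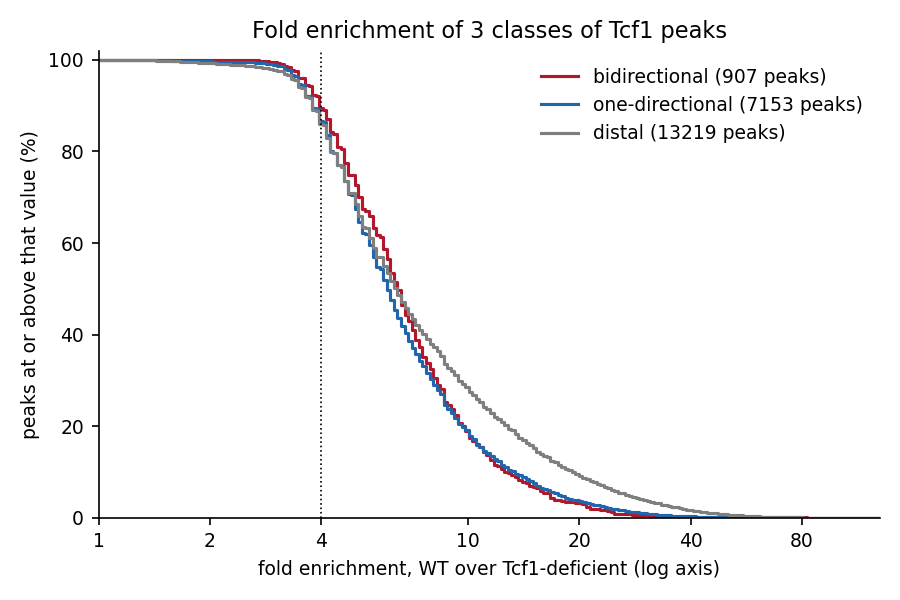
Share of peaks (%) at or above each fold enrichment of WT over Tcf1-deficient cells (log axis) for the 907 bidirectional, 7153 one-directional and 13219 distal peaks; the dotted line marks the fold minimum of 4. The bidirectional curve lies above the one-directional one at low values, crosses it near a fold enrichment of 10 and lies slightly under it over most higher values, while the distal curve is above both from there on except at the far end, where few peaks remain.

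The control level, computed back from fold and pileup, was at its genome-wide floor of 5.42 fragments at 742 bidirectional peaks (81.8%), so that their fold enrichment was set by the WT pileup alone. No bidirectional peak had a control level over 50 fragments, and the highest was 30.1, whereas 29 one-directional promoter peaks exceeded 50. Where the control level was at the floor, 25 fragments were needed to reach the fold minimum of 4, a count with a 95% Poisson interval of 16.2 to 36.9. Accordingly 223 bidirectional peaks (24.6%) were closer to that minimum than 1 Poisson SD, 146 of them above it and 77 under it, and counting error could have put them on either side. The peaks just inside it were those of Snx25/4933411K20Rik and Gorasp1/Ttc21a, both with a pileup of 25 and a fold enrichment of 4.05. Just under it were 2410002I01Rik/1810043H04Rik and Bzw2/Ankmy2, both with a fold enrichment of 3.99 and with pileups of 27 and 35 against control levels of 6.02 and 8.02.

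Bidirectional peaks were wider than one-directional ones, with a median width of 563 bp (543 to 589) against 500 bp (492 to 508). Of the bidirectional peaks, 59.6% were wider than the one-directional median, 9.70 percentage points more (6.27 to 13.0). They stood alone more often: 33.4% had another deposited summit within 10 kb, against 45.6% of one-directional promoter peaks, a difference of -12.2 points (-15.4 to -8.89). Both classes had a median GC content of 62.7% in the 100 bp on each side of the summit, against 48.8% for distal peaks. The ratio of observed to expected CpG was 0.875 in bidirectional, 0.815 in one-directional and 0.245 in distal windows, and the median distance from the summit to the nearest start was 43 bp in bidirectional and 91 bp in one-directional promoter peaks.

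The position of the summit relative to the pair of starts was examined next. For each peak the diverging starts with the smallest summed distance to the summit were taken. They were a median of 167 bp apart (interquartile range 85 to 298, range 2 to 1792), and 19 pairs of starts were over 1 kb apart. The summit lay between the starts in 531 peaks (58.5%, 55.3 to 61.7), inside the minus-strand gene in 177 and inside the plus-strand gene in 199. The stretch between the starts made up a mean of 16.4% of the positions that the rule allowed a summit to take, so the summits lay between the starts more often than an even spread over those positions gives. Choosing the starts nearest to the summit favours this count, and with a single 5′ end for each gene the share was 51.2%.

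The median distance of the summit from the midpoint of the starts was 72.5 bp, and 558 summits (61.5%) lay within 100 bp of it. The rule and the choice of the nearest starts both favour a short distance. It was not set beside a comparison, so nothing more is read from it. A preference for one side was not detectable, since 461 of the 905 peaks that were not equally near both starts (50.9%, 47.7 to 54.2) lay nearer to the plus-strand start. By annotation 468 summits fell in an exon of a protein-coding gene, 121 in an intron and 318 between genes. The share of summits between the starts rose with their distance apart, from 39.1% (33.5 to 44.9) at up to 100 bp to 57.1% at 101 to 200 bp and 71.5% (65.4 to 76.9) at over 200 to 400 bp, and was 70.3% (60.3 to 78.7) at 401 to 700 bp and 81.6% (66.6 to 90.8) at 701 to 1000 bp. The share of the allowed positions that lay between the starts was 3.10%, 7.98%, 16.5%, 37.2% and 75.6% in the same order. At 701 to 1000 bp, with 38 peaks, the interval of the share thus included that of an even spread.

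**Figure D2:**
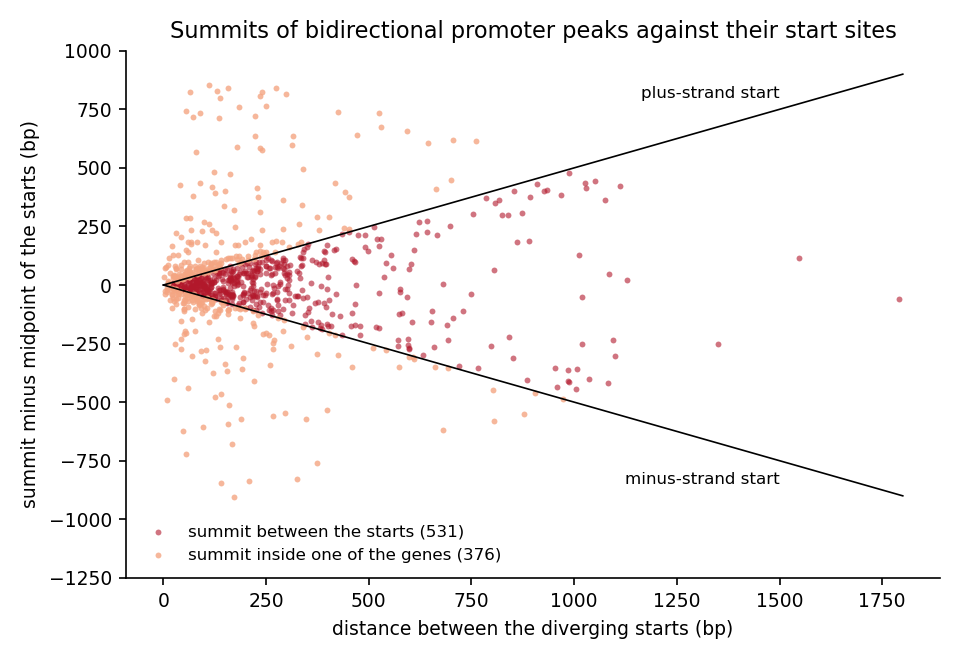
Each of the 907 bidirectional promoter peaks by the distance between its diverging starts (bp) and the offset of its summit from their midpoint (bp); the lines mark the positions of the starts, dark points are the 531 summits between them and light points the 376 inside a gene. Most points lie close to an offset of 0, on both sides of it alike.

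Median width and median fold enrichment were largest where the starts were 401 to 700 bp apart. The median width went from 508 bp at distances of up to 100 bp to 557 bp at 101 to 200 bp, 617 bp at over 200 to 400 bp and 748 bp at 401 to 700 bp. It was 563 bp at 701 to 1000 bp and 611 bp at the 19 peaks over 1 kb. No intervals were computed for these widths. The median fold enrichment was 6.23 (5.76 to 6.54), 6.25 (5.92 to 6.54), 6.56 (6.08 to 7.17), 7.48 (6.54 to 8.88), 6.39 (4.99 to 7.63) and 7.01 (4.83 to 9.66) in the same order. The interval at 401 to 700 bp met those of the first pair of ranges at 6.54, and the other intervals overlapped. In the 41 pairs with more than 1 peak, different starts could serve each summit. Wrap53 and Trp53, which encode a telomerase-associated protein and the tumour suppressor p53, held summits at chromosome 11, 69392941 and 69393786, with fold enrichments of 4.28 and 5.14, each between diverging starts, which were 1035 bp apart for the one and 104 bp for the other.

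The strongest bidirectional promoter peak lay between Smyd1, a histone methyltransferase of muscle, and Cd8b1, the beta chain of the CD8 coreceptor that defines these cells (chromosome 6, 71272119 to 71273142). It had a pileup of 520 against a control level at the floor and a fold enrichment of 81.2. Its summit was intergenic and lay 211 bp upstream of the nearest Cd8b1 start and 392 bp from that of Smyd1, and the 2 starts were 603 bp apart. The Tcf/Lef core printed above was 2 bp from this summit. Since 1 peak serves a pair of genes, these data do not tell which of the genes it belongs to.

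The next peak lay between Zfp142, a zinc finger protein, and Bcs1l, an assembly factor of mitochondrial complex III (chromosome 1, 74634273 to 74634997), with a pileup of 318 and a fold enrichment of 49.7. Hnrnpd, an RNA-binding protein, and 4930524J08Rik followed with a pileup of 217 and a fold enrichment of 34.0, and Mrpl43/Peo1, a mitochondrial ribosomal protein and the mitochondrial DNA helicase, with a pileup of 216 and a fold enrichment of 33.8. The first 2 peaks thus stood apart, and those after them lay closer together. The histone genes Hist2h2ac and Hist2h2be held a peak with a fold enrichment of 31.0 whose summit lay in the untranslated part of Hist2h2be, 455 bp inside the gene.

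The remaining peaks of the 10 strongest had fold enrichments from 24.6 to 28.7. They lay at Serpinb6a/Ripk1, a protease inhibitor and a kinase of TNF receptor signalling (28.7), at Prrg2/Nosip (27.8), at Rnf5/Agpat1, a ubiquitin ligase and an enzyme of phospholipid synthesis (26.0), at Dnajc7/Nkiras2, a cochaperone and an NF-kappaB inhibitor-interacting protein, and at Cryzl1/Itsn1, of which Itsn1 is an endocytic scaffold. The last 2 were tied at a pileup of 157 and a fold enrichment of 24.6, the same values as the peak of Sphk2/Rpl18. The peak of Prrg2/Nosip had the third largest pileup, 287, and a control level of 9.36, above the floor, whereas the control level was at the floor at the other 9.

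The control level was highest at Hjurp/Trpm8, a centromere histone chaperone and a cold-sensing ion channel, where a pileup of 283 stood against a control level of 30.1 and the fold enrichment was 9.14. At Srsf7/Ttc39d a pileup of 161 stood against 11.4, and at Drap1/AI837181 a pileup of 48 stood against 10.7. The control level at Hjurp/Trpm8 was therefore several times the floor, and the cause was not tested. Some other peaks lay in repeated sequence: 10 peaks shared a run of 51 bases with another bidirectional peak. These included 5 pairs of the Hist1 cluster and 3 neighbouring pairs on chromosome 17 (Tcte3/2210404J11Rik, Gm3417/9030025P20Rik and Gm3448/Gm3435, with fold enrichments of 23.1, 20.7 and 20.4), where the authors' mapping could divide reads between copies, so these values are uncertain. The other 2 shared the CA repeat of the Smyd1/Cd8b1 window, the second being Dos/Atp5d.

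Bidirectional promoters known from textbooks were looked at as a further group. Of 15 such pairs, 12 had diverging starts at most 1 kb apart in this annotation, and all 12 held a peak, against 76.4% of all 1108 such promoters. The list is short and was chosen with earlier results known, so nothing is read from that count. Their fold enrichments were 3.74 to 15.9. The highest were at Ppat/Paics, 2 enzymes of purine synthesis (pileup 101, fold enrichment 15.9) and at Ranbp1/Trmt2a, a cofactor of the Ran GTPase and a tRNA methyltransferase (pileup 98, 15.4). Brca1/Nbr1 stood at 9.82, Atm/Npat, the DNA damage kinase and an activator of histone genes, at 8.41, the mitochondrial chaperones Hspd1/Hspe1 at 8.33, Mcm4/Prkdc at 7.63 and Gart/Son at 7.01. All of these passed the criteria.

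Lower values were found at Surf1/Surf2 (5.76), at Mrps12/Sars2 (4.52) and at Sirt3/Psmd13 (4.13), whose pileups were 36, 28 and 28. The peak between Psmb9 and Tap1, a subunit of the immunoproteasome and a subunit of the peptide transporter of MHC class I loading, had a pileup of 23 and a fold enrichment of 3.74, under the criteria. The other 3 pairs held no peak by the rule. Tcp1, a chaperonin subunit, had Mrpl18 as its diverging partner in this annotation in place of Acat2, and that pair had a fold enrichment of 12.3. Col4a1 and Col4a2, genes of basement membrane collagen, had no promoter peak in the deposited list. Cd3d and Cd3g, which encode chains of the T cell receptor complex, had starts 1362 bp apart and separate peaks, 45 bp from the Cd3d start (pileup 93, fold enrichment 14.6) and 78 bp from the Cd3g start (pileup 33, fold enrichment 5.30). A further peak, under the criteria, lay 880 bp from the Cd3d start (pileup 20, fold enrichment 3.27).

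The genes served by these peaks were counted by function. Of all 21418 protein-coding genes on these chromosomes, 1728 (8.07%) had a bidirectional promoter peak, 10.5% lay in a diverging pair with starts at most 1 kb apart, and 37.5% had a promoter peak of any kind. The gene order itself sets how many genes of a list can have such a peak, and both shares are given for each list. Among 61 genes of DNA repair and replication, 37.7% were in a diverging pair and 22 (36.1%) had a bidirectional peak. Besides Brca1 and Atm, Dclre1b, a nuclease of crosslink repair, was served by a peak with a pileup of 59 and a fold enrichment of 8.97. The median fold enrichment of the 24 peaks at these genes was 5.68, against 6.39 for all 907, and 21 of the 24 passed the criteria, which 89.1% of all bidirectional and 85.4% of all deposited peaks did.

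Genes of mitochondrial function were counted in the same way. Of 77 genes of the mitochondrial ribosome 21 (27.3%) and of 75 genes of oxidative phosphorylation 22 (29.3%) had a bidirectional peak, with 33.8% and 33.3% in a diverging pair. Besides Mrpl43 and Mrpl18, peaks lay at Mrpl13/Mtbp (pileup 60, fold enrichment 9.50) and Ptcd2/Mrps27 (pileup 70, fold enrichment 9.24). The ATP synthase genes Atp5c1, paired with Kin, and Atp5f1, paired with Wdr77, had fold enrichments of 13.9 and 13.4, and the complex I genes Ndufa5, paired with Asb15, and Ndufs3, paired with Kbtbd4, had 8.98 and 8.57. The median fold enrichment was 7.48 over the 21 ribosomal peaks and 5.77 over the 24 oxidative phosphorylation peaks. Of these, 17 and 19 passed the criteria, beside the 89.1% of all bidirectional peaks, and nothing is read from counts this small.

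Genes of protein synthesis and turnover followed. Of 79 genes of the cytosolic ribosome 13 (16.5%) were in a diverging pair and 12 (15.2%) had a bidirectional peak, while 91.1% had a promoter peak of any kind. Peaks lay at Sphk2/Rpl18, at Rps27a/1700034F02Rik (pileup 79, fold enrichment 12.5), at Rps18/Vps52 (71, 11.2) and at Rpl15/Nkiras1 (66, 10.4). Of 48 proteasome genes 22.9% were in a diverging pair and 8 (16.7%) had such a peak, among them the assembly factor Psmg2, paired with Cep76 (pileup 94, fold enrichment 14.5), the activator Psme2, paired with Rnf31 (51, 8.10), the ATPase Psmc2, paired with Dnajc2 (60, 7.94), and the core subunit Psma2, paired with Mrpl32 (47, 7.48). Of 37 tRNA synthetase genes 29.7% were in a diverging pair and 7 (18.9%) had a bidirectional peak. Their peaks included S100pbp/Yars (pileup 67, fold enrichment 10.6), Lyrm4/Fars2 (40, 6.39) and Wars/Wdr25 (39, 6.23).

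Clustered histone genes, which code for the core histones and often lie in head-to-head pairs, had a bidirectional peak at 20 of 67 genes (29.9%), with 40.3% in a diverging pair. Their 13 peaks had a median fold enrichment of 4.99. Apart from Hist2h2ac/Hist2h2be the highest were Hist1h2bh/Hist1h3f at 7.17, Hist1h2ae/Hist1h2bg at 7.01 and Hist1h2bq/Hist1h2ao at 6.54, of which the last is among the peaks that share sequence with another. Of 49 genes listed as T cell genes, 44 (89.8%) had a promoter peak, 4 (8.16%) lay in a diverging pair, and 3 (6.12%), namely Cd8b1, Psmb9 and Tap1, had a bidirectional peak. The list thus also took in the immunoproteasome gene Psmb9 and the peptide transporter gene Tap1. These share 1 peak, with a fold enrichment of 3.74, under the criteria.

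Read the other way, from promoters to peaks, diverging promoters were more often occupied than other promoters. The annotation held 1108 diverging promoters with starts at most 1 kb apart, of which 846 (76.4%, 73.8 to 78.8) had a summit within 1 kb of both starts. Of 19169 one-directional genes, 6259 (32.7%, 32.0 to 33.3) had a summit within 1 kb of a start, 43.7 percentage points fewer (41.0 to 46.2). Among CpG-rich promoters, with a GC content of at least 55% and an observed to expected CpG ratio of at least 0.6, the shares were 81.5% (688 of 844) and 58.7% (4622 of 7868), and the difference was 22.8 points (19.8 to 25.5). With a window of 500 bp on each side of the midpoint or 5′ end for both kinds, chosen after the data were seen, the shares were 72.3% and 27.4%. Transcription of the genes, which can differ between these groups, was not analysed here.

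Occupancy depended on how far apart the starts were. It was 76.7% (72.8 to 80.3) at up to 100 bp, 77.0% at 101 to 200 bp, 86.9% (81.6 to 90.8) at over 200 to 400 bp, 62.8% (52.7 to 71.9) at 401 to 700 bp and 47.7% (33.8 to 62.1) at 701 to 1000 bp. The stretch in which a summit meets the rule shrinks as the starts move apart. With the fixed window of 500 bp on each side the shares in the same order were 73.3%, 72.7%, 83.0%, 56.4% and 43.2%, so the order of the ranges changed only between the first and second, whose intervals overlap.

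**Figure D3:**
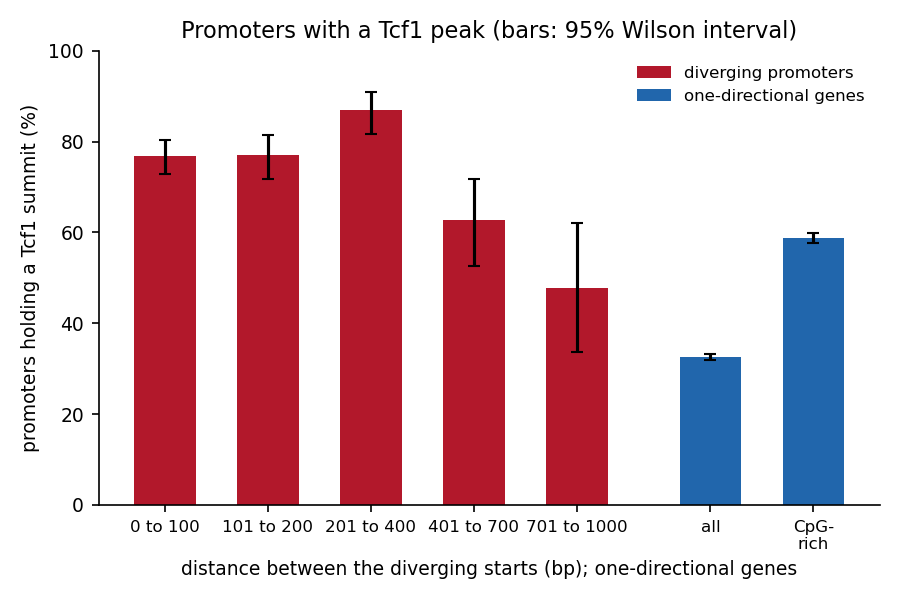
Share of promoters (%) with a Tcf1 summit within 1 kb, for diverging promoters by the distance between their starts (bp) and for one-directional genes, all and CpG-rich; error bars are 95% Wilson intervals. The share is highest at over 200 to 400 bp (86.9%) and falls to 47.7% at 701 to 1000 bp, and the one-directional bars stand at 32.7% and 58.7%.

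A set of 10 short motifs was then searched on both strands within 100 bp of the summits, and in windows of the same size 2 kb to each side as flanks. These flanks were not matched to the summit windows in GC content. The Tcf/Lef core was spelled ATCAAAG, the ETS core CGGAAGT, the Runx core TGTGGTT, the Sp/KLF box (GC box) CCCGCCC, the NRF1 core GCATGCG, the NFY box CCAATCA, the YY1 core AAGATGG, the CRE core TGACGTC, the E-box CACGTGA and the TATA box TATAAAA. The NFY box and the Tcf/Lef core can overlap by 4 letters. At least 1 of the 10 motifs lay in 640 of the 907 bidirectional windows, and 267 (29.4%) held none. A match describes the letters in the window and is not shown to be a bound site.

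The Sp/KLF box was the most common motif, in 36.9% (33.9 to 40.1) of bidirectional windows, 37.6% of one-directional windows and 1.43% of the bidirectional flanks. The ETS core followed in 179 peaks (19.7%, 17.3 to 22.5), against 0.662% of their flanks, 12.3% (11.6 to 13.1) of one-directional promoter peaks and 2.62% of distal peaks. Within 100 bp of all 67112 annotated starts of protein-coding genes, bound or not, the ETS core was found at 6.02%, the Sp/KLF box at 22.98%, the NFY box at 4.44%, the YY1 core at 5.41%, the NRF1 core at 2.73%, the E-box at 2.75%, the CRE core at 2.59%, the Runx core at 3.02%, the Tcf/Lef core at 1.82% and the TATA box at 2.45%. Read backwards (TGAAGGC), the same letters were in 2.76% of bidirectional and 2.89% of one-directional windows, so both classes had a like share of the reversed letters.

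The NFY box was in 9.92% (8.14 to 12.04) of bidirectional and 6.56% of one-directional windows, and the YY1 core in 8.16% (6.55 to 10.1) and 4.98%. The CRE core (6.17% and 5.52%), the E-box (5.84% and 5.45%) and the NRF1 core (5.29% and 4.46%) had intervals that overlapped between the classes. TATA boxes were rare in both classes. They were in 12 bidirectional peaks (1.32%) against 6.73% of flanks, and in 0.91% of one-directional peaks against 5.59% of flanks. The Runx core was in 27 peaks (2.98%, 2.05 to 4.30), against 5.07% of flanks, 5.44% of one-directional and 20.6% of distal peaks.

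**Figure D4:**
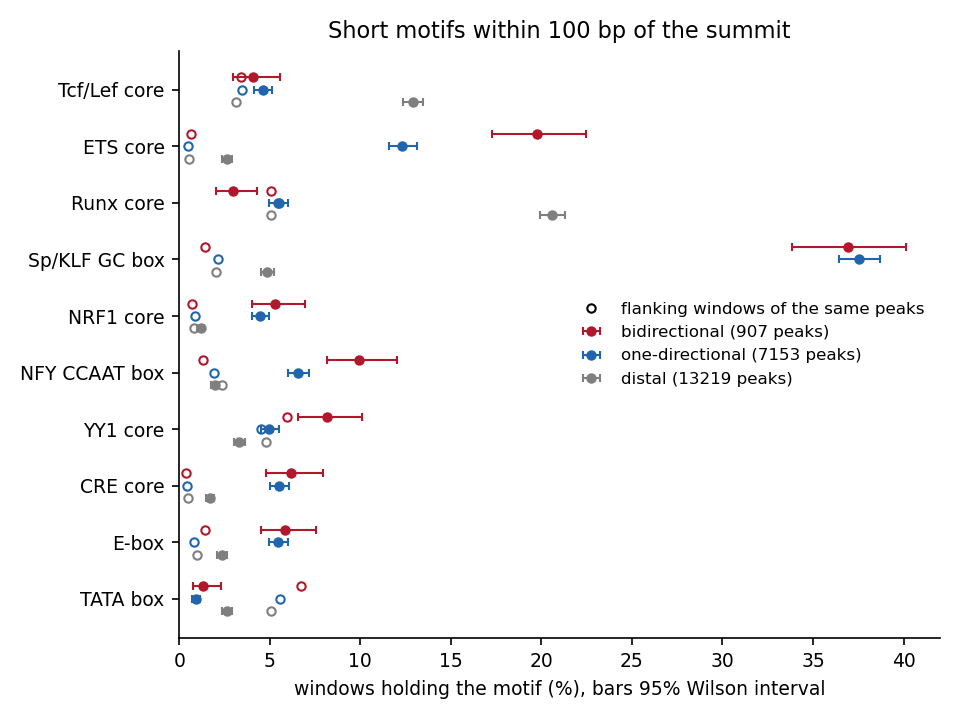
Share of windows (%) holding each of 10 motifs within 100 bp of the summit for bidirectional, one-directional and distal peaks (filled points, with bars for 95% Wilson intervals) and in the flanks of the same peaks (open points). Bidirectional peaks lie to the right of one-directional ones at the ETS core (19.7% and 12.3%), the NFY box (9.92% and 6.56%) and the YY1 core (8.16% and 4.98%), and to the left at the Runx core (2.98% and 5.44%).

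The excess of the ETS core over one-directional promoter peaks was 7.40 percentage points (4.82 to 10.2), but it shrank when the classes were made more alike. Weighting one-directional peaks to the GC content of the bidirectional ones gave 6.08 points (3.39 to 8.78), weighting to the distance from the start gave 4.57 (1.83 to 7.30), and weighting to both gave 3.32 (0.583 to 6.05). The intervals of these weighted differences overlapped, and the reductions were not compared with each other. The excess was 5.73 points (2.52 to 9.19) among summits within 100 bp of a start, whereas at 101 to 250 bp the difference was -0.82 points (-4.63 to 5.28), and at 251 to 500 bp and 501 to 1000 bp, with 47 and 26 bidirectional peaks, the intervals also included 0. The 427 one-directional promoter peaks that had the start of a diverging noncoding gene nearby carried the ETS core in 16.4%, and the bidirectional share exceeded theirs by 3.34 points, with an interval of -1.19 to 7.55 that includes 0.

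With both weights the NFY box differed by 2.34 points (0.301 to 4.39), the YY1 core by 2.07 (0.174 to 3.96) and the Runx core by -1.49 (-2.68 to -0.30). The lower bounds of the first pair were close to 0. Against the one-directional peaks with a diverging noncoding start the differences were 3.13 points (-0.18 to 6.06) for the NFY box, 2.54 (-0.53 to 5.21) for the YY1 core and -0.07 (-2.36 to 1.75) for the Runx core, which was in 2.98% and 3.04%. These 3 intervals included 0, as did those of the remaining motifs except the Sp/KLF box, which was in 36.9% of bidirectional and 43.3% of these peaks, a difference of -6.39 points (-12.04 to -0.78). With both weights applied to all one-directional peaks the Sp/KLF box differed by -2.12 points (-5.33 to 1.09). With 10 motifs compared, these intervals were not widened for that number.

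The ETS core was most frequent where the starts lay close together. It was in 26.9% (22.02 to 32.4) of peaks at distances of up to 100 bp, 23.3% at 101 to 200 bp, 12.8% (9.09 to 17.6) at over 200 to 400 bp and 14.3% at 401 to 700 bp. Peaks with starts at most 200 bp apart carried it in 25.2% and the others in 12.3%, a difference of 12.9 points (7.83 to 17.8), and the difference was 14.8 points (8.63 to 20.5) among summits within 100 bp of a start. In the 179 peaks with the core, the copy nearest the summit was a median of 31 bp away from the nearer start, and in 109 (60.9%) it lay between the starts. The YY1 core, at a median of 30 bp, lay between the starts in only 27.0% of its 74 peaks, whereas the NFY box, at a median of 56 bp, did so in 76.7% of its 90 peaks.

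Occupied and unoccupied diverging promoters also differed in some of these motifs. The groups were not matched in GC or CpG content or in the distance between the starts. Within 100 bp of either start, the ETS core was in 25.7% of the 846 promoters with a peak and 11.1% of the 262 without one, a difference of 14.6 points (9.37 to 19.04). The YY1 core was in 13.2% and 5.34%, the NFY box in 15.5% and 8.78%, the NRF1 core in 8.87% and 3.82% and the E-box in 8.04% and 3.82%, all with intervals of the difference above 0. The Tcf/Lef core was in 2.25% and 2.67%, a difference of -0.43 points (-3.28 to 1.42), and the Sp/KLF box in 51.9% and 46.2% (difference -1.21 to 12.5). Occupancy was 81.5% among CpG-rich diverging promoters against 76.4% of all of them. It also varied with the distance between the starts, on which the length of the searched stretch depended. Whether the motif differences hold at like CpG content and like distance was not tested.

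The exact Tcf/Lef core was uncommon at bidirectional promoter peaks. It lay within 100 bp of 37 summits (4.08%, 2.97 to 5.57), 0.662 points above the 3.42% of their flanks (-0.789 to 2.33). An excess over these flanks, which were not matched in GC content, was thus not detectable. By GC content the core was in 10.3% of the 58 bidirectional peaks under 50% and in 0.581% of the 172 at 70% and over. The interval of the bidirectional share lay above the 1.82% (1.72 to 1.93) of all annotated protein-coding starts, bound or not. The share was 4.61% of one-directional promoter peaks, a difference of -0.53 points (-1.75 to 1.03), and 12.9% of distal peaks. Reversed letters (GAAACTA) were in 1.87% of the bidirectional windows.

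Peaks with the core were nevertheless the taller ones. Their median fold enrichment was 8.57 (7.32 to 13.1), against 6.39 (6.08 to 6.54) for the 870 without it, and their median width was 721 against 559 bp. The core was in 0 of the 99 peaks under the fold minimum (3 counts of 99, which a count of 0 allows, are 3.03%, and the Wilson interval reaches 3.74%), in 2.03% at fold enrichments of 4 to 6, in 3.67% at 6 to 10, in 8.53% (4.83 to 14.6) at 10 to 20 and in 7 of 29 (24.1%, 12.2 to 42.1) at 20 or more. In one-directional promoter peaks the share also went up, with the core in 3.0%, 3.04%, 3.6%, 9.0% (7.40 to 10.9) and 18.4% (14.2 to 23.6) over these 5 ranges. In bidirectional peaks, at fold enrichments of 10 or more the core was in 11.4% of 158 peaks, 8.86 points (4.56 to 14.8) above the 2.54% of the other 749. The ETS core in bidirectional peaks showed no such change, at 15.2%, 20.9%, 20.1%, 20.2% and 17.2% over the same 5 ranges, and differed by -0.14 points (-6.35 to 7.25) between the peaks of 10 or more and the others. In one-directional promoter peaks the ETS share was 7.85% (6.32 to 9.72), 12.5%, 13.5%, 14.5% (12.5 to 16.8) and 9.02% (6.09 to 13.2) in these ranges.

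**Figure D5:**
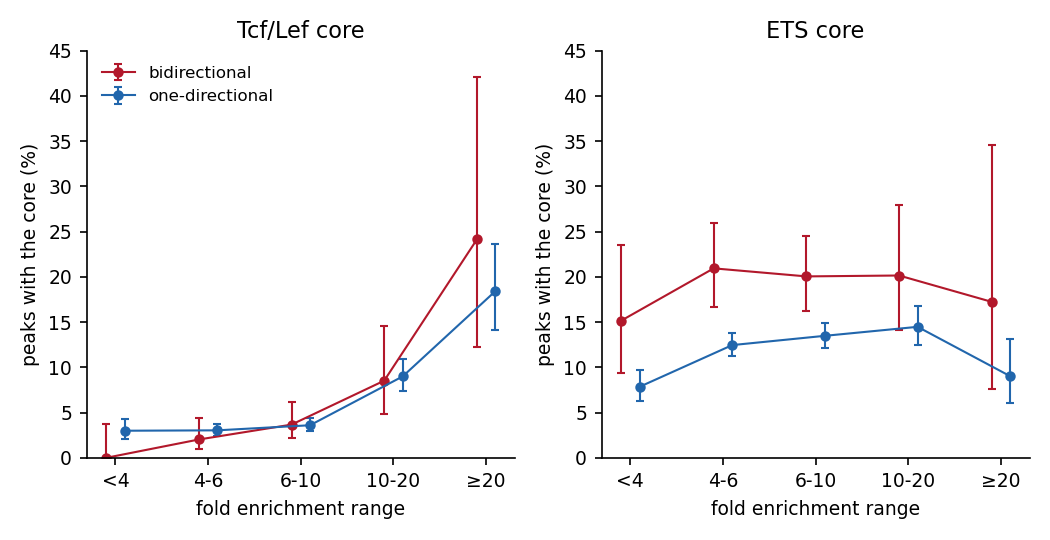
Share of peaks (%) with the Tcf/Lef core (left) and the ETS core (right) by range of fold enrichment in bidirectional and one-directional promoter peaks, with 95% Wilson intervals. The Tcf/Lef share of bidirectional peaks goes from 0% under a fold enrichment of 4 to 24.1% at 20 or more and that of one-directional peaks from 3.0% to 18.4%, while the bidirectional ETS share stays between 15.2% and 20.9%.

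In 23 of the 37 peaks (62.2%) the nearest copy of the Tcf/Lef core lay within 25 bp of the summit, against 34.6% of the 179 peaks with the ETS core. Only 4 peaks held both cores, 1 of them Rps18/Vps52. The NFY box was in 10 of the 37, and in 5 peaks the copies of the 2 motifs overlapped by their 4 common letters. In the 7 peaks shown with the core, pileups ranged from 114 at Prr11/Fam33a, a proline-rich protein and a kinetochore protein, to 520 at Smyd1/Cd8b1. Between these stood Nhlrc3/2810046L04Rik and BC053749/Hspb6, a small heat shock protein, both with a pileup of 154 and a fold enrichment of 24.1, and Npc2/Isca2, a lysosomal cholesterol carrier and an iron-sulfur assembly factor, with 150 and 23.5.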

How the data were processed

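The authors aligned reads to mm9 with Bowtie2 (2.2.5) and called peaks with MACS2 (2.1.1.20160309), with WT as treatment and Tcf1-deficient as control. Deposited per peak are the signal (pileup, unscaled WT fragments at the summit), the fold enrichment (a ratio with 1 added to both terms), and −log10 p and −log10 q values from MACS2, which compare the 2 libraries and not the genotypes. The header states that q was not calculated, although the deposited q values are present. Mapping filters were not given in the sources used here, and value columns without a sample numbered 0. Kept fragments numbered 36938606 (WT) and 27625250 (control).

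Start sites of all transcripts of protein-coding genes came from GENCODE vM1, and sequence from NCBIM37, which is mm9. Each summit was assigned the diverging pair with the smallest summed distance. Peaks, promoters and genes were counted in Python 3.11.15 with numpy 2.4.6, pandas 2.3.3, scipy 1.17.1 and matplotlib 3.10.9. Shares have 95% Wilson intervals, differences Newcombe intervals, and medians order-statistic intervals. No test was run, since each group had 1 library. The member rule, the motif search and the intervals were tested on simulated data. In the comparison of bidirectional with one-directional peaks, GC content and distance to the start were handled by weighting within ranges. The members, gene lists and motifs were chosen with earlier results of these data known. Named were the 10 largest folds, the 3 largest pileups, the 3 highest control levels, the 8 strongest with the Tcf/Lef core, the 2 on each side of the fold minimum, textbook pairs, and up to 4 per gene list; Wrap53/Trp53, Dos/Atp5d and the repeated pairs on chromosome 17 were chosen after their values were seen. Of the peaks this rule takes, 3 are not reported here. Chromosome X was left out by the rule.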

Additional observations from a re-analysis of the deposited data

How the results depend on the processing

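Over 10 results and 80 alternatives, 62 values stayed within the interval of the value in the report (counts within 1.5 times) and 18 moved. The Tcf/Lef difference from one-directional promoter peaks, whose interval includes 0, took the opposite sign under 3 of its alternatives: 0.0178 points with 1 start per gene, 0.424 at a distance of 500 bp and 0.724 with weighting to GC content and distance. The ETS difference kept its sign under all of its alternatives. A fold minimum of 8 left 277 bidirectional peaks, with a median fold enrichment of 10.8, a Tcf/Lef share of 7.22% and 63.2% of summits between the starts. Keeping only peaks past the study's criteria gave a median of 6.70, 52.4% above the one-directional median and 68.9% of diverging promoters occupied, and q under 1e-10 gave a median of 7.32. These follow from which peaks each filter removes. A fold minimum of 5 passed 70.01%. Within 50 bp of the summit the Tcf/Lef share was 2.65%, the ETS share 12.6% and the ETS difference 4.71 points, and within 200 bp the ETS share was 25.9%. With 1 start per gene at its 5′ end, 51.2% of summits lay between the starts and the ETS difference was 4.58 points. Diverging promoters were occupied in 68.4% at a distance of 500 bp and in 72.3% with a fixed window of 500 bp around the midpoint. Weighting to GC content and distance gave an ETS difference of 3.32 points. The last pair of alternatives, and the same weighting for the Tcf/Lef difference, were added after the data were seen. The cause of the moves with the window, the start sites and the weighting was not tested. No paired analysis was possible because each group had 1 library. Depth limits the side of the fold minimum for 223 peaks.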
